A study of Callithrix jacchus with 4 samples.

Results

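GAD1, GAD2, SST, PVALB, VIP, LAMP5, ADARB2 and LHX6 are among the genes by which cortical interneurons and their main subclasses are told apart. These 8 interneuron subclass markers were taken by name out of the 16383 genes listed for both cohorts of the study, and all 8 were found there. They were followed in the nuclei that the deposited annotation calls inhibitory neurons (InN), with excitatory neurons (ExN) for comparison. As background, interneurons release GABA, which the enzymes GAD1 and GAD2 make from glutamate, and they fall into branches born in different zones of the embryonic ventral forebrain. LHX6 is a transcription factor that cells of the medial ganglionic eminence (MGE) keep into adult life, among them those with the neuropeptide somatostatin (SST) and those with the calcium-binding protein parvalbumin (PVALB). ADARB2, of the RNA-editing deaminase family, marks the branch of the caudal ganglionic eminence (CGE), to which the cells with vasoactive intestinal peptide (VIP) and most of those with the membrane protein LAMP5 belong.

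Single nuclei came from the primary visual cortex (V1) of adult common marmosets. The injured cohort was 3 animals, each a library of its own, taken 7 days after the vasoconstrictor endothelin-1 (ET-1) had been injected into V1 to cause a focal ischemic stroke, with core and penumbra included; they are injured 1 (F1619), injured 2 (F1565) and injured 3 (F1711). The control cohort was 3 uninjured animals pooled in 1 library (marmosetv1), so spread between control animals was not measured, and every test below assumes that the control varies as the injured libraries do. The cohorts also differed in nuclei isolation, in sorting (control nuclei only), in sequencing site and instrument, and in how doublets were removed, so injury and these steps cannot be told apart.

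InN held 399 of the nuclei of injured 1, 1098 of injured 2, 722 of injured 3 and 1011 of the control, 2219 injured InN nuclei in all, out of 38147 nuclei of all types. They made up 5.32%, 8.77%, 7.59% and 11.7% of these libraries in the same order. Median depth per InN nucleus was 6628, 4846.5 and 5719 unique molecular identifiers (UMIs, 1 per captured RNA molecule) in the injured libraries and 2441 in the control, and in ExN 7077, 5378 and 6358 against 2678. Shares of nuclei with a UMI rise with depth, so they are given first with each nucleus thinned to 1000 UMIs, which left out 9, 41 and 32 injured and 90 control InN nuclei. Between 15 and 27 cell barcodes were shared by any pair of libraries.

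The label InN was checked against its markers. GAD1 or GAD2 was seen in all but 8.02%, 13.5% and 13.7% of injured InN nuclei and 21.4% of control ones with all UMIs used. In the authors' own clustering, InN nuclei of the injured cohort were clusters 5, 9 and 24, and cluster 9 stood apart in these markers. Of its 329 nuclei, 24.3% (95% exact binomial interval 19.8 to 29.3) had GAD1 and 34.3% had GAD2, while 17.0% had SLC17A7, the vesicular glutamate transporter of excitatory neurons, against 1.07% in cluster 5 and 1.27% in cluster 24. Its nuclei were shallow, with a median of 1610 UMIs against 5856 and 4895. At 1000 UMIs it had GAD1 in 16.6%, against 33.5% in cluster 5 and 25.7% in cluster 24, but GAD2 in 23.5%, against 58.7% and 21.6%, so GAD2 did not set it apart from cluster 24. SLC17A7 was then in 2.83% (1.15 to 5.75) of its nuclei, against 0.134% and 0.254%. It formed 14.0%, 12.8% and 18.3% of InN nuclei of injured 1, 2 and 3, so results were also taken without it. These intervals and all those below cover counting error only.

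With all UMIs used, all members were highest in InN in all 4 libraries (8 of 8, where 5.04% of the 12984 genes tested in InN had that order), but they differed widely in how far InN stood above ExN. This order was part of what named the clusters and carries no test. GAD1, in UMIs per 1e6 UMIs of a cell type (counts per 1e6, CPM), stood in InN at 482, 393 and 445 in injured 1, 2 and 3 and at 341 in the control, and in ExN at 5.43, 7.29, 7.35 and 4.97. GAD2 stood in InN at 930, 752, 1202 and 669 CPM and in ExN at 10.6, 11.4, 13.3 and 6.79. Both synthesis genes were therefore 53.9 to 98.6 times higher in InN, with no overlap between cell types. LHX6 was at 77.6, 98.0, 63.1 and 120 CPM in InN and at 0.317 to 0.761 CPM in ExN, 123 to 206 times lower. PVALB stood in ExN at 1.73, 2.89 and 1.53 CPM in the injured libraries and 1.40 in the control, 15.3 to 18.7 times below InN in the injured and 43.6 times below it in the control. SST and VIP stayed at 0.236 to 1.11 CPM in ExN of all 4 libraries. With nuclei thinned to 1000 UMIs, 7 of the 8 members were highest in InN in all 4 libraries. VIP in the control was then at 9.77 CPM in InN and 12.5 CPM, from 1 UMI in 80 nuclei, in oligodendrocyte precursor cells (OPC).

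GAD1 was not limited to interneurons. In OPC nuclei GAD1 stood at 212, 223 and 220 CPM in the injured libraries (218 ± 5.20, mean ± SD, n = 3) and 267.5 in the control, the second highest type in all 4. GAD2 in the same OPC nuclei stood at 14.8, 20.2, 21.3 and 21.4 CPM. A GAD1 UMI was found in 56.3%, 45.5% and 55.4% of injured and 24.0% of control OPC nuclei, at median depths of 5628, 2912, 4981 and 962 UMIs. Thinned to 1000 UMIs the shares came to 20.8%, 21.2%, 17.9% and 23.8%, with overlapping intervals. In oligodendrocytes, which should lack the gene, thinned shares of GAD1 were 0.866%, 1.72%, 1.73% and 0.428%.

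LAMP5 and ADARB2 were shared with excitatory neurons, and ADARB2 with OPC too. LAMP5 in InN was 22.0, 21.4, 23.5 and 15.2 CPM and in ExN 13.7, 12.3, 18.4 and 10.1 CPM, a ratio of 1.28 to 1.74. In injured 3 the unthinned share of nuclei with LAMP5 was even lower in InN (7.76%, 5.91 to 9.95) than in ExN (9.43%, 8.41 to 10.5), with overlapping intervals. After InN, ADARB2 was highest in OPC in injured 2 (50.2 CPM) and the control (80.25 CPM), and in ExN in injured 1 and 3. ADARB2 in ExN varied between animals. It stood at 36.5 CPM in injured 1, 21.4 in injured 2, 77.0 in injured 3 and 23.6 in the control, so the ratio of InN to ExN ran from 4.98 in injured 3 to 18.6 in the control. The unthinned share of ExN nuclei with ADARB2 was 17.8%, 10.2%, 30.7% and 6.5%, and in injured 3 it was level with that of InN (30.6%), whereas at 1000 UMIs the shares in injured 3 were 21.4% in InN and 7.61% in ExN. Among ExN, injured 3 was highest at that depth too, with 3.23%, 2.34% and 2.25% in the others.

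**Figure D1:**
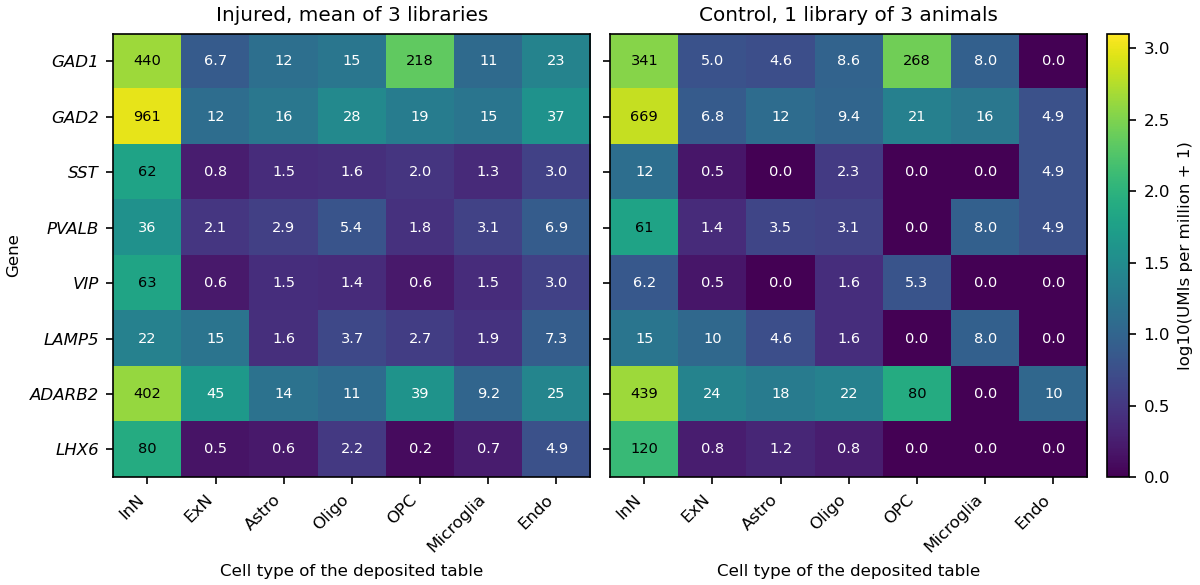
Level of each member by cell type, as UMIs per 1e6 UMIs of that type (numbers in cells, colour on a log10 scale), as the mean of the 3 injured libraries (left) and in the control library (right). With all UMIs, as shown, every member is highest in InN, and GAD1 is second in OPC (218 in injured libraries). LAMP5 and ADARB2 extend into ExN, and ADARB2 also into OPC.

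How often each subclass gene was seen in InN was compared between cohorts at equal depth. At 1000 UMIs per nucleus, SST was found in 3.33% (1.79 to 5.63), 4.54% (3.37 to 5.98) and 6.38% (4.67 to 8.47) of InN nuclei of injured 1, 2 and 3 and in 1.41% (0.754 to 2.40) of the control. VIP was found in 5.64% (3.57 to 8.42), 3.97% (2.88 to 5.33) and 5.36% (3.8 to 7.32) and in 0.869% (0.376 to 1.70) of control nuclei. No VIP interval of an injured library reached that of the control, whereas the SST interval of injured 1 did. As background, at the same depth SST was seen in 0% to 0.177% of ExN nuclei and VIP in 0% to 0.0776%, in either cohort. A count of 0 there, in ExN of injured 1, allows a share of up to 0.162%.

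PVALB and LHX6 lay on the other side. PVALB was found in 2.31%, 4.26% and 2.75% of injured and 4.34% (3.12 to 5.87) of control InN nuclei, and LHX6 in 9.74%, 8.89% and 5.51% of injured and 10.2% (8.33 to 12.3) of control nuclei. Every injured value was below the control, but of these only LHX6 in injured 3 (3.93 to 7.48) had an interval apart from it. ADARB2, at 25.6%, 20.5%, 21.4% and 23.3%, had control among the injured values.

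GAD1 was seen in 40.8%, 27.7% and 27.7% against 27.4%, so that injured 1 alone stood apart. GAD2 was seen in 46.7%, 44.4% and 53.8% against 41.2%, with injured 3 farthest from the control. LAMP5 shares of 2.05%, 2.93% and 2.03% against 1.74% all overlapped in their intervals, and LAMP5 in ExN was at 1.08%, 1.24%, 1.70% and 0.990%. In all, 5 members (GAD1, GAD2, SST, VIP and LAMP5) had every injured share above the control share, where 26.3% of all genes tested did, and 2 (PVALB and LHX6) had every injured share below it, where 37.4% did. At 2000 UMIs the first count fell to 3 (GAD1, SST and VIP), as it did in nuclei with at most 2500 genes. The second set changed too: in nuclei with at most 2500 genes it was ADARB2 alone, and at 500 UMIs and without injured cluster 9 it was LHX6 alone, with PVALB of injured 2 then at 4.39% against 4.34% in the latter.

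With all UMIs used the picture of LHX6 turned. Its share was then 31.1%, 32.8% and 25.5% in the injured libraries and 24.8% in the control, and no member had every injured share below the control, while 79.1% of all genes tested had every injured share above it and 6.47% below it. Unthinned shares of the other members in injured 1, 2 and 3 and control were 82.2%, 69.9%, 73.4% and 54.5% for GAD1, and 77.7%, 74.8%, 74.4% and 63.8% for GAD2. For the peptides they were 9.77%, 11%, 13.2% and 3.26% for SST and 9.52%, 8.11%, 10.8% and 1.78% for VIP. PVALB had 12.8%, 19.6%, 12% and 13.8%, LAMP5 8.27%, 6.56%, 7.76% and 3.86%, and ADARB2 35.3%, 29.2%, 30.6% and 30.9%.

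**Figure D2:**
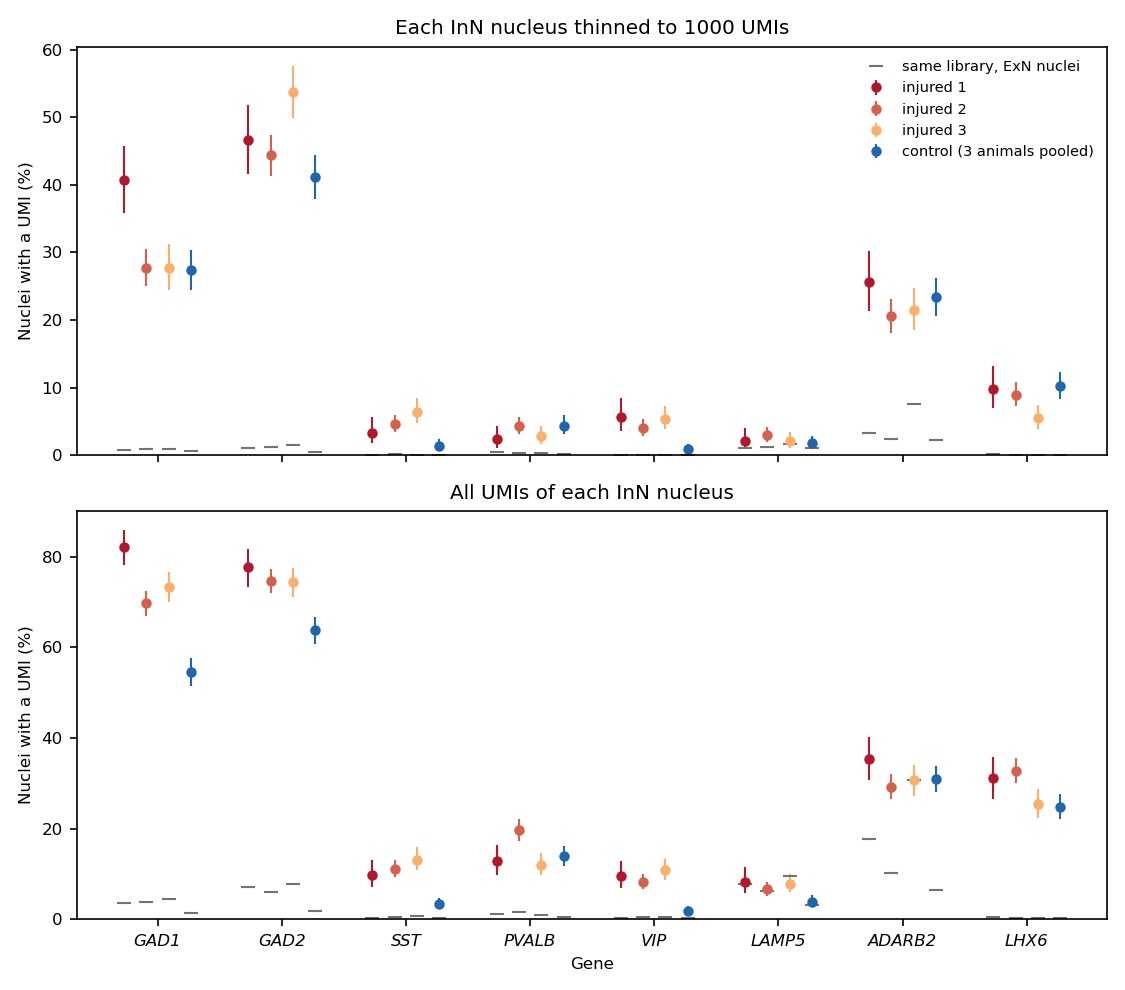
Share of InN nuclei with at least 1 UMI of each member per library, thinned to 1000 UMIs (top) and with all UMIs (bottom), with 95% exact binomial intervals as bars; grey dashes mark ExN nuclei of the same library. SST and VIP are higher in all 3 injured libraries in both panels, and LHX6 changes side between them.

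The level of each member in InN was then tested on summed UMIs, 1 sum per library. SST and VIP stood far above the control in all 3 injured animals. SST was the member that passed the call rule, VIP met all of it but the share of nuclei, and the other 6 members did not pass. SST, whose peptide dampens dendrites, was at 57.2, 50.6 and 77.5 CPM in injured 1, 2 and 3 and at 12.3 CPM in the control, sums of 143, 276, 313 and 38 UMIs. The fitted log2 fold change was 2.42 (SE 0.32; edgeR quasi-likelihood test, Benjamini-Hochberg adjusted p = 0.00136). VIP, the peptide of interneurons that mostly inhibit other interneurons, was at 61.2, 50.7 and 77.2 CPM against 6.16 CPM, sums of 153, 277, 312 and 19 UMIs. Its log2 fold change was 3.45 (SE 0.35; edgeR, adjusted p = 0.000315). No injured value of either gene came near the control.

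The call rule of the comparison asked for an adjusted p below 0.01, a natural-log fold change beyond 0.25 and a UMI in at least 10% of InN nuclei of either cohort. Under it SST was the 1 member called of 8, where 3.41% of the 12984 genes tested were called in either direction and 2.20% as higher and 1.22% as lower in injured. SST reached 10% of nuclei in the injured cohort only, whose nuclei were deeper (11.5% against 3.26% in the control). VIP met the limits on p and fold, as 2.81% of all genes did on p alone in that direction, but was seen in 9.24% of injured InN nuclei and so was not called. It was called in nuclei with at most 2500 genes, where its adjusted p was 7.98e-10 (edgeR). There VIP was in 6.72%, 10.9% and 10.5% of injured and 1.83% of control InN nuclei, so it passed the 10% limit narrowly and in the injured cohort only. Without injured 2 its log2 fold change was 3.59, in a fit on injured 1 and 3 against the lone control. That is too few to estimate spread between animals. With nuclei thinned to 1000 UMIs neither gene reached 10% of nuclei, while log2 fold changes were 2.32 for SST (edgeR, adjusted p = 0.00121) and 3.22 for VIP (edgeR, adjusted p = 4.26e-06).

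The remaining members moved less. GAD1 had a log2 fold change of 0.47 (SE 0.15; edgeR, adjusted p = 0.0599) and GAD2 of 0.62 (SE 0.23; edgeR, adjusted p = 0.0885). LAMP5 had 0.65 (SE 0.26; edgeR, adjusted p = 0.109), and ADARB2, at 471, 352 and 384 CPM against 439, had -0.03 (SE 0.17; edgeR, adjusted p = 0.921). LHX6, at 120 CPM in the control, had -0.48 (SE 0.22; edgeR, adjusted p = 0.156). PVALB, the calcium buffer of fast-spiking cells, was at 26.4 CPM in injured 1, 54.2 in injured 2 and 27.2 in injured 3 against 61.3 in the control, with -0.62 (SE 0.36; edgeR, adjusted p = 0.246). Injured 2 was close to the control in PVALB and the other 2 animals were well below it. Without injured 2, PVALB had a log2 fold change of -1.09 and LHX6 of -0.69. That fit rests on injured 1 and 3 against the lone control, too few to estimate spread between animals, so its calls are not read.

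Copies per nucleus moved along with the shares for the peptides. Among InN nuclei with a UMI of the gene, thinned to 1000 UMIs, SST averaged 1.31, 1.17 and 1.61 UMIs in the injured libraries and exactly 1 in the 13 control nuclei. VIP averaged 1.77, 1.76 and 1.89 UMIs against 1.12 in 8 control nuclei. PVALB had 1 UMI in each of 9 nuclei of injured 1 and averaged 1.11 and 1.32 in the other two against 1.05, and LHX6 1.16, 1.05 and 1.03 against 1.10, so that control lay within the injured range for both.

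Markers of other cell types were followed in the same InN sums, and their part in the SST and VIP results was not tested. Summed microglia markers stood at 238, 190 and 148 CPM in injured InN and 62.9 in control InN, with 1 of the 4 tested called. That gene was CD74, the invariant chain of antigen presentation, with a UMI in 42.9% of injured and 0.396% of control InN nuclei. P2RY12, a marker of resting microglia, was at 13.2, 14.8 and 11.4 CPM against 19.5, and C1QB had no UMI in control InN nuclei, the only marker at 0 in any library. Oligodendrocyte markers together stood at 146, 162 and 168 CPM against 194. Excitatory markers summed to 899, 1044 and 1002 against 1022, with 1 of 8 called, NRGN, a calmodulin-binding protein of dendrites, at 62.0, 82.8 and 90.1 against 33.4. No gene was called among 6 astrocyte markers (126, 138 and 167 against 124), 3 OPC markers (459, 343 and 431 against 445) and 3 endothelial markers (62.8, 63.7 and 68.3 against 60.9). SST and VIP themselves were at 0 to 2.63 CPM in oligodendrocytes of every library. Outside InN they reached more in other types of the control. SST was at 4.90 CPM in endothelial nuclei, against 12.3 in InN, and VIP at 5.35 CPM in OPC, against 6.16 in InN. Each of these values outside InN was 1 UMI, of 204095 UMIs in all for endothelial and 186916 for OPC nuclei, too few to give a level. Without injured cluster 9 the log2 fold changes in InN were 2.52 for SST (edgeR, adjusted p = 0.000953) and 3.49 for VIP (edgeR, adjusted p = 0.000152).

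**Figure D3:**
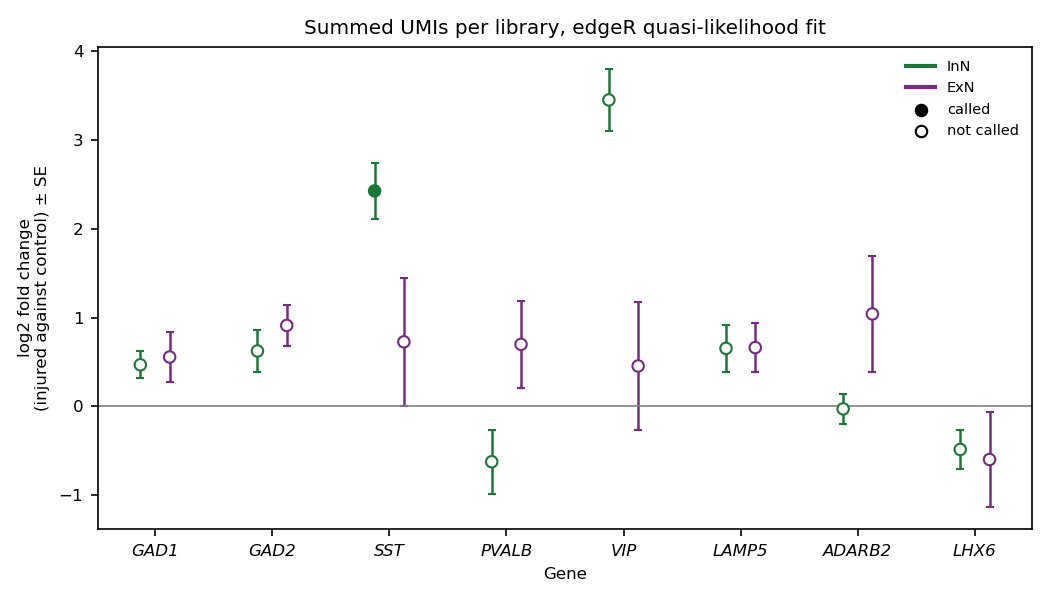
log2 fold change of each member, injured against control, on UMIs summed per library in InN (green) and ExN (purple), with standard errors of the fit as bars; filled points passed the call rule. SST (2.42) is the filled point, and VIP (3.45) is the highest but was seen in under 10% of InN nuclei.

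In ExN, where these genes are low, no member was called, where 3.85% of the 15122 genes tested were. Of the members, ADARB2 alone reached the 10% of nuclei that a call needs (18.2% of injured and 6.50% of control ExN nuclei). LAMP5 came next, in 7.56% of injured ones. For all members but ADARB2 the lack of a call was thus fixed beforehand. Among the members GAD2 had the lowest adjusted p, with a log2 fold change of 0.91 (SE 0.23; edgeR, adjusted p = 0.0344). ADARB2 had 1.04 (SE 0.65; edgeR, adjusted p = 0.274), with injured 3 alone far above the control. SST in ExN rested on 4, 22, 21 and 9 UMIs and VIP on 3, 20, 16 and 9.

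Whether the injured-minus-control change itself differed between InN and ExN was tested as an interaction, with the library as a block. No member passed (0 of 8; 0.0135% of 14840 genes did). VIP had the greatest difference, 2.96 on the log2 scale (SE 0.81; edgeR, unadjusted p = 0.00340, adjusted p = 0.433), SST had 1.68 (SE 0.70; edgeR, unadjusted p = 0.0337, adjusted p = 0.748) and PVALB -1.30 (SE 0.32; edgeR, unadjusted p = 0.00182, adjusted p = 0.334). With all 3 injured animals, a change of SST or VIP confined to InN was therefore not shown. With nuclei thinned to 1000 UMIs the difference was 0.09 for SST (edgeR, adjusted p = 1.0) and 3.63 for VIP (edgeR, adjusted p = 0.457). Without injured 2 the difference was -1.27 for ADARB2 and 3.35 for VIP. That fit rests on injured 1 and 3 against the lone control, too few to estimate spread between animals.

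LHX6 and ADARB2 were seen in the same InN nucleus less often than independent detection would give. At 1000 UMIs, 0, 2 and 0 InN nuclei of injured 1, 2 and 3 and 4 of the control had a UMI of both, where independent detection within each library would give 9.74, 19.3, 8.15 and 21.9. With all UMIs the nuclei with both numbered 10, 27, 14 and 32, against 43.8, 105, 56.3 and 77.5 under independence. The control thus held the most nuclei with both at either depth, 3.17% of its InN nuclei unthinned against 2.51%, 2.46% and 1.94%, with overlapping intervals.

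Which branch looked larger depended on depth. Among nuclei with a UMI of 1 gene and none of the other, the ADARB2 side was 72.5%, 70.0% and 79.6% in the injured libraries and 70.1% in the control at 1000 UMIs, a mean difference of 3.92 percentage points, less than the SD of 4.96 between the 3 animals. At 2000 UMIs the ADARB2 side was 68.0%, 61.8% and 70.0% against 61.0%, above the control in all 3. With all UMIs the order turned, to 53.5%, 46.9% and 54.9% against 56.1%, below the control in all 3. As many as 64.6%, 70.8% and 73.0% of injured and 66.9% of control InN nuclei had neither gene at 1000 UMIs, and still 36.1%, 40.4%, 45.8% and 47.5% with all UMIs.

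The subclass genes were compared between the nuclei with LHX6 alone and those with ADARB2 alone. With all UMIs, PVALB was found in 25.4%, 32.4%, 17.1% and 23.3% of nuclei with LHX6 alone, and in 2.29%, 4.42%, 5.31% and 3.57% of those with ADARB2 alone, in injured 1, 2, 3 and control. SST was found in 14.0%, 12.9% and 20.0% of injured nuclei with LHX6 alone and 3.65% (1.59 to 7.07) of control ones, and in 0.763%, 2.38%, 1.93% and 0.714% with ADARB2 alone. No injured interval for SST in the LHX6 branch, of which the lowest bound was 8.24, reached the control. In the control SST rested on 8 of 219 nuclei with LHX6 alone and 2 of 280 with ADARB2 alone, with overlapping intervals, so that a preference for either side was not shown there. Thinned to 1000 UMIs, SST was in 1 of 38, 6 of 92 and 5 of 38 injured and 2 of 90 control nuclei with LHX6 alone, and PVALB in 1, 3, 1 and 6 of the same nuclei, with overlapping intervals.

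VIP followed ADARB2. It was found in 27.5%, 26.9% and 31.9% of injured and 6.07% (3.58 to 9.54) of control nuclei with ADARB2 alone, and in 0%, 0.901%, 2.35% and 0% of nuclei with LHX6 alone, where 0 of 114 allows up to 2.63% and 0 of 219 up to 1.37%. LAMP5 was in 22.1%, 18.7%, 18.8% and 9.64% of nuclei with ADARB2 alone and in 0.457% to 2.35% with LHX6 alone. Thinned to 1000 UMIs, VIP was in 10 of 100, 26 of 215 and 14 of 148 injured nuclei (12.1% in injured 2 and 9.46% in injured 3) and in 3.32% (1.34 to 6.72) of control nuclei with ADARB2 alone. The intervals of injured 1 (4.90 to 17.6) and injured 3 (5.27 to 15.4) overlapped the control and that of injured 2 (8.05 to 17.2) did not. LAMP5 was then in 7.00%, 6.51%, 6.08% and 3.79%, all overlapping.

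**Figure D4:**
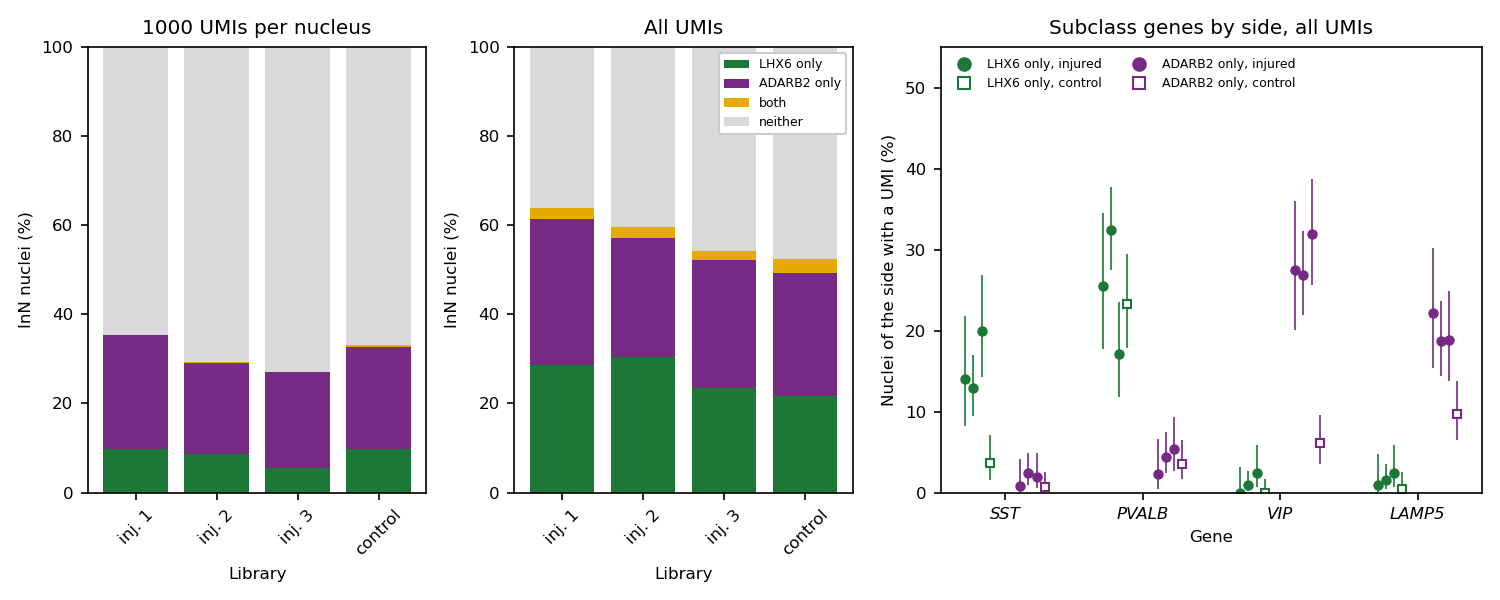
InN nuclei of each library by UMIs of LHX6 and ADARB2, thinned to 1000 UMIs (left) and with all UMIs (middle), and the share of each side with a UMI of SST, PVALB, VIP or LAMP5 with all UMIs (right; 95% exact binomial intervals). Nuclei with both are 0% to 0.434% when thinned, PVALB and, in injured libraries, SST sit on the LHX6 side, and VIP and LAMP5 on the ADARB2 side.

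The authors' clusters were read for the same genes. In the control, cluster 8 (358 nuclei) had PVALB in 30.7% and SST in 0.279%, cluster 9 (344) had SST in 9.01% and PVALB in 8.43%, cluster 13 (203) had ADARB2 in 82.8% and VIP in 8.87%, and cluster 17 (106) had ADARB2 in 94.3% and LAMP5 in 31.1%. In the injured cohort, cluster 5 (1497) held LHX6 in 42.2%, PVALB in 22.0% and SST in 15.4%, but also ADARB2 in 17.8% and LAMP5 in 8.55%. Cluster 24 (393) held ADARB2 in 91.9% and VIP in 41.2%, with LAMP5 in 5.34%. Cluster 9 (329) held ADARB2 in 17.0% and LAMP5 in 3.65%, so nuclei with either gene were found in all 3 injured clusters. Of the control clusters, VIP was seen in cluster 13 alone, with no nucleus of 358, 344 and 106 in the others, which allows shares of up to 0.838%, 0.872% and 2.83%. The cohorts were clustered apart, so these figures stand side by side and were not compared.

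Each InN nucleus tended to show at most 1 subclass gene. At 1000 UMIs, 86.7%, 84.6% and 83.8% of injured and 91.7% of control InN nuclei had no UMI of SST, PVALB, VIP or LAMP5, and 0, 3, 2 and 1 nuclei had more than 1 of them. With all UMIs 6, 32, 14 and 5 nuclei had 2 of them and none had 3. Among the 28 pairs of members, 13 were seen together less often than independence would give in all 4 libraries at 1000 UMIs, and 4 more often (GAD1 with GAD2, GAD2 with LHX6, LAMP5 with ADARB2, VIP with ADARB2). With all UMIs these counts were 12 and 12, PVALB with LHX6 and SST with LHX6 now among those above. At 1000 UMIs, SST, VIP and LAMP5 were in 13, 8 and 16 of 921 control InN nuclei. For pairs of these genes no shared nucleus was likely even under independence. The count of pairs below therefore cannot show that such members exclude each other.

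Pairs across branches were among those seen together less often than independence would give. SST with ADARB2 met in 1 of the injured nuclei where 22.6 would be expected from independence within libraries, and PVALB with ADARB2 in 3 where 15.6 would. In the control these were 1 against 3.03 and 0 against 9.34. VIP with LHX6 met in 1 against 7.92 injured nuclei and 0 against 0.817 in the control, too few there to tell. Within a branch, SST and PVALB met in 17 injured nuclei with all UMIs against 40.1 under independence, and in 3 control nuclei against 4.57. VIP and LAMP5, which met in no nucleus at 1000 UMIs, had no common pattern with all UMIs. They met in 2, 10 and 1 injured nuclei against 3.14, 5.84 and 6.05, so injured 2 stood above independence and the others below.

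Of nuclei with VIP, 94.7%, 89.9%, 84.6% and 94.4% also had ADARB2 with all UMIs, and of nuclei with LAMP5 93.9%, 84.7%, 76.8% and 84.6% did. LHX6 was found in 58.8%, 53.5%, 35.6% and 40.0% of nuclei with PVALB and in 43.6%, 38.0%, 35.8% and 27.3% of those with SST. GAD2 was seen below independence with VIP and with ADARB2 in all 4 libraries, but not with LAMP5. GAD2 with VIP met in 21 injured nuclei against 48.8 at 1000 UMIs, and with ADARB2 in 165 against 223 in injured and 69 against 88.5 in control nuclei, while with LAMP5 it met in 27 against 25 and 8 against 6.58. In the nuclei with LHX6 alone, GAD2 was seen in 91.2%, 89.8%, 88.8% and 77.2%, and with ADARB2 alone in 71.8%, 65.0%, 67.1% and 53.2%.

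**Figure D5:**
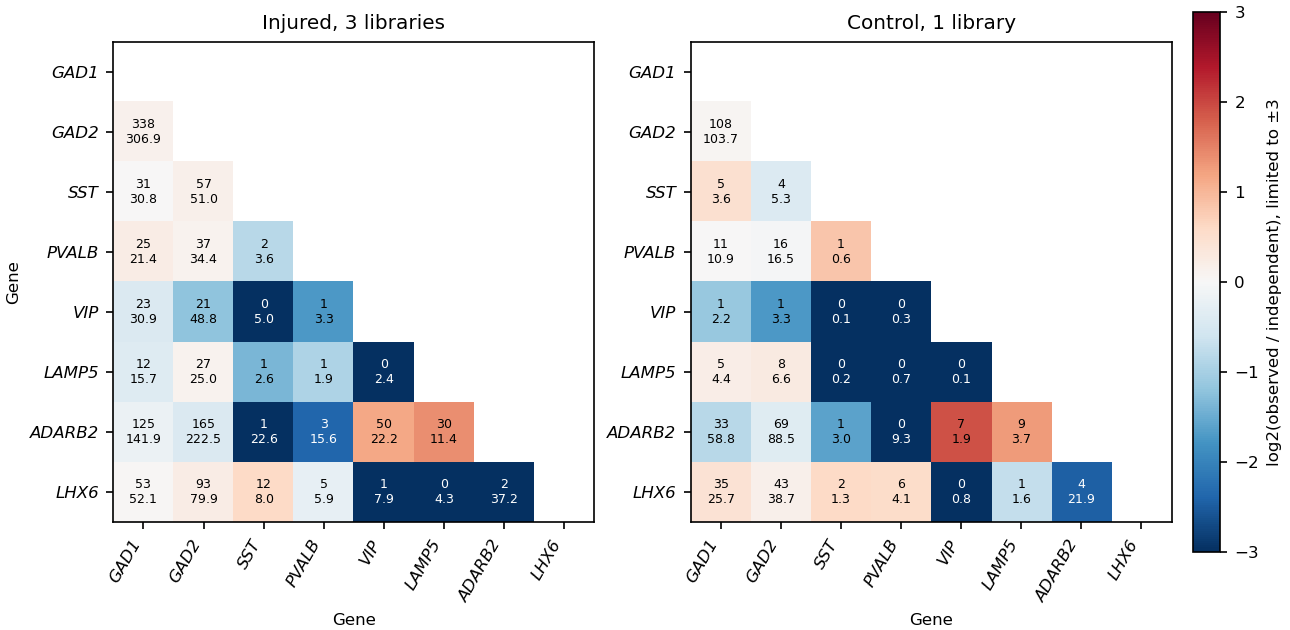
Pairs of members in InN nuclei thinned to 1000 UMIs, over the 3 injured libraries (left) and in the control (right). In each cell the upper number counts nuclei with both genes, the lower number is what independent detection within libraries would give, and colour is the log2 of their ratio limited to ±3; VIP and LAMP5 with ADARB2 are red, and SST, PVALB and LHX6 with ADARB2 are blue.

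The genes whose counts followed each member across InN nuclei were read from Pearson's r of log-normalized counts within each library, averaged over the 4 libraries, among 7405 genes seen in at least 5% of InN nuclei of each. Nuclei of a library share its depth and clustering, so r is a description. ADARB2 went with KCNT2 (0.62), EGFR (0.61) and NFIB (0.60), and was lowest with SOX6 (-0.54), a transcription factor of the MGE branch. LAMP5 went with SV2C (0.48), a synaptic vesicle protein, NTNG1 (0.43) and KIT (0.42). VIP went with LAMA3 (0.43), IQGAP2 (0.33) and DPF3 (0.33), and SST with ABI3BP (0.40), GRIK1 (0.33), a kainate receptor subunit, and COL24A1 (0.30).

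GAD2 went with NXPH1 (0.38), SLC26A4 (0.34) and SOX6 (0.33), and GAD1, more weakly, with SPOCK3 (0.24), GAD2 (0.23) and ARHGAP10 (0.22). PVALB went with SLC26A4 (0.25), MYO5B (0.23) and LRRC38 (0.22), and LHX6 with SOX6 (0.28), EPHA6 (0.27) and KIAA1217 (0.27). LHX6 was lowest with ADARB2 (-0.32). For 7 members the r of the leading gene was lower in the control, whose nuclei were shallower, than in every injured library, as with 0.26 against 0.43 to 0.47 for SST with ABI3BP and 0.54 against 0.62 to 0.70 for ADARB2 with KCNT2. For PVALB the values were close (0.24 against 0.25), and LHX6 was the exception.

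Other genes of the same pathways were taken as lists that hold some of the 8 members too. Of the 50 genes tested on 5 lists, 4 were called in InN, SST among them, where 3.41% of all genes tested were called. All 4 were higher in injured nuclei, where 2.20% of all genes were called higher. Each of the 4 reached 10% of nuclei in the injured cohort only, whose nuclei were deeper. Over all genes tested the log2 fold change had a median of 0.003. Of the 7 genes of GABA synthesis, transport and breakdown, 1 was called, 4 were above 0 and the median was 0.36. The called gene, SLC32A1, which loads GABA into synaptic vesicles, was at 78.5, 88.6 and 82.4 CPM against 25.3 (log2 fold change 1.82, SE 0.20; edgeR, adjusted p = 0.000526). It was seen in 30.1%, 30.7% and 29.9% of injured and 7.22% of control InN nuclei with all UMIs, and in 8.21%, 8.99%, 8.55% and 2.61% (1.68 to 3.85) at 1000 UMIs.

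Among neuropeptides and calcium-binding proteins, 2 of 12 tested, of 15 listed, were called, both higher (SST and CCK), 11 were above 0 and the median was 1.66. CCK, cholecystokinin, was at 40.0, 40.5 and 65.4 CPM against 11.7 (2.17, SE 0.37; edgeR, adjusted p = 0.00500). CRH, the stress peptide, was at 54.4, 31.5 and 48.3 CPM against 11.3 and, like VIP, met the limits on p (edgeR, adjusted p = 0.00519) and fold but was in 8.74% of injured InN nuclei; it was named after its values were seen. Of the 15 CGE-branch genes tested, of 20 listed, 13 were above 0 and 2 were called, CCK and the chemokine CXCL14, which was at 104, 104 and 107 CPM against 30.5 (1.89, SE 0.18; edgeR, adjusted p = 0.000243), and the median was 0.52.

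Of the 12 MGE-branch genes tested, of 18 listed, none was called and 8 were above 0, with a median of 0.05. The most abundant, the neuregulin receptor ERBB4, was at 1370, 1572 and 1202 CPM against 1369 (0.12, SE 0.18; edgeR, adjusted p = 0.671). Across InN nuclei ERBB4 was also the gene lowest with SST (mean r -0.29), so its level does not stand for the whole branch. SST, which was called (2.42), and PVALB belong to this branch but were not on its list. VIP and LAMP5 were likewise not on the CGE list. What the lists hold differs, so a difference between branches was not tested. KCNC2, a potassium channel of fast-spiking cells, was at 1205, 1234 and 1120 against 966 (0.40, SE 0.15; edgeR, adjusted p = 0.0843). None of the 9 DLX and pan-interneuron regulators tested, of 11 listed, was called either, 7 were above 0 and the median was 0.19, and their most abundant members, ZEB2 (0.08, SE 0.17; edgeR, adjusted p = 0.756) and NPAS3 (0.49, SE 0.17; edgeR, adjusted p = 0.0731), are transcription factors.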

How the data were processed

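Per the labels and the study's methods, reads were aligned and counted by the authors with Cell Ranger 3.1.0 on a marmoset genome, doublets were removed (injured cohort with Scrublet, control with Seurat filters on genes per nucleus), and nuclei were clustered per cohort and given cell types. The deposited tables hold raw UMI counts per gene and nucleus (29537 injured, 8610 control nuclei), and a table of nuclei with cluster and cell type, which were used as given; no doublet caller was run again. Per nucleus, summed counts equalled the deposited totals in all nuclei. The members and all gene lists were chosen with earlier results of these data known.

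Counts were summed per library over InN or ExN nuclei for the 16383 genes listed in both tables and tested with edgeR 4.0.16 (R 4.3.3; TMM, filterByExpr, quasi-likelihood F test, Benjamini-Hochberg over all genes tested), after a check on simulated counts. The interaction of cell type and cohort had the library as a block. Permutation of 3 against 1 cannot reach p = 0.05, so shares carry exact 95% binomial intervals and no test; a share of 0 allows up to 3 counts of the total. Nuclei were thinned without replacement to 500, 1000 or 2000 UMIs, leaving out shallower ones. Named were all 8 members, for each member the 3 genes of highest mean r where r was at least 0.15, and per list up to 4 called genes or, with fewer than 2 called, the 2 most abundant. Alternatives were DESeq2 1.42.0, other scaling, filters, depths and thresholds, and each injured animal left out, which was done with the lone control assumed to vary like the injured. The tests of single oligodendrocyte markers are not reported here.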

Additional observations from a re-analysis of the deposited data

How the results depend on the processing

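In InN, the count of members called was 1 in the main test (SST), 0 with nuclei thinned to 1000 UMIs, where no more than the share of nuclei kept SST out, and 2 in nuclei with at most 2500 genes (SST and VIP). SST stayed called as each injured animal was left out, and the further calls of the fit without injured 2 are not read. In ExN it was 0 under all alternatives, but in the main test members other than ADARB2 were in too few nuclei to be called. For the interaction it was 0 under all alternatives but the fit without injured 2, whose calls are not read. SST kept a log2 fold change of 2.12 to 2.56 in InN over 11 alternatives and VIP 3.22 to 3.77. Members with every injured share above the control went from 5 to 3 at 2000 UMIs and to 3 in nuclei with at most 2500 genes, and stayed at 5 at 500 UMIs. At those settings the share over all genes was not taken. The ADARB2 side of InN, injured mean minus control, went from 3.92 to -4.36 percentage points with all UMIs, and ran from 1.15 to 5.92 as each injured animal was left out; the cause was not tested.

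Chosen after seeing the data, leaving out injured cluster 9 kept SST as the 1 member called and left ADARB2, at 0.04, and the ADARB2 side, at 3.85, about where they were, while called genes of the 5 pathway lists went from 4 to 6, with NXPH1 and CALB1 added. ADARB2 changed sign in 3 and LAMP5 in 1 of 11 alternatives in InN. Of all genes tested in InN, 443 were called, 285 of them higher, and 521 with library size alone, 248 of them higher, where the median of all genes was -0.10; with DESeq2 the count was 486, with an adjusted p below 0.05 1433, with thinned nuclei 112, and as each injured animal was left out 245 to 1541. In ExN the count was 582, with 393 of them higher, 527 with library size alone, with 263 higher, 1193 with DESeq2, 1834 at 0.05, 243 in nuclei with at most 2500 genes, 90 when thinned, and 77 to 920 as each injured animal was left out. The interaction called 2 genes, 0 without the block, 6 when thinned, and 0 to 153 as each animal was left out. Injured and control animals could not be paired, because the control was 3 other animals pooled in 1 library. Depth limits the control most: SST and VIP there rested on 38 and 19 UMIs.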
